A study of Mus musculus with 3 samples.

Results

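The genes described here are the glucocorticoid receptor (Nr3c1), 6 genes known to respond to glucocorticoid hormones (Tsc22d3, Fkbp5, Sgk1, Zbtb16, Klf9 and Dusp1), the enzyme Hsd11b1, which regenerates active glucocorticoid inside cells, and the secreted ligand Gas6 with its receptor Axl. They were chosen by symbol from the 44625 gene entries of the series, and all 10 were found. The set was put together after Tsc22d3 had been seen to vary widely between replicates, so the spread of Tsc22d3 over the libraries is a description that carries no test. Polyadenylated RNA of mouse back skin cells that were Alpha6+/Sca1- (positive for integrin alpha6, negative for the surface protein Sca1) had been sequenced in 3 libraries, here called replicates 1, 2 and 3. All belonged to 1 group: wild-type (WT) mice, 56 days of age (P56), whose hair follicles were in the second resting phase, or telogen. Skin was digested with trypsin, the epidermis was parted from the dermis, and live single cells were sorted by flow cytometry. The protocol names an antibody to integrin alpha6 and none to Sca1. The labels speak of biological duplicates while there are 3 libraries, so each SD measures only the spread between these samples, which may in part be technical. The sex and number of the mice and their stress or hormone state were not given in the sources used here.

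Glucocorticoids are adrenal steroids that enter cells and bind the glucocorticoid receptor, which is held ready in the cytoplasm by Hsp90 and its cochaperones. The bound receptor moves to the nucleus and switches on genes such as Tsc22d3 and Fkbp5, some of whose products damp the hormone's action in turn. In skin, glucocorticoids restrain inflammation and epidermal growth. In mouse hair follicles, the stress hormone corticosterone is known to prolong telogen by lowering Gas6 in the dermal papilla, the cell cluster at the follicle base, and Gas6 in turn is known to wake hair follicle stem cells.

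The libraries held between 29283936 and 39198620 counts. Markers of hair follicle stem and basal cells were abundant, with a summed level of 39839 to 55263 TPM (a transcript abundance corrected for gene length and library size) over the 9 listed genes, all of them detected. Endothelial markers summed to at most 0.323 TPM with Cdh5, Cldn5 and Emcn at 0 counts in each library, and adipocyte markers to at most 0.684 TPM. Immune markers summed to 32.7 to 37.5 TPM, with Lyz2 at 0 counts, and melanocyte markers to 14.8 to 16.2 TPM. The libraries were not alike as a whole: of 13663 genes with a mean of at least 1 TPM, 59.6% had their highest TPM in replicate 1. In bulk RNA, fewer cells of a type and less RNA per cell cannot be told apart.

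Of the 10 genes, 9 had a mean above 1 TPM, and the exception was Hsd11b1. Dusp1, a phosphatase that switches off MAP kinases, had the highest mean, 1030 ± 415 TPM (SD, n = 3). Gas6 followed with 431 ± 72.5 TPM, then Sgk1 with 180 ± 22.4 TPM and Tsc22d3 with 176 ± 160 TPM. The middle of the order was held by Axl at 144 ± 9.53 TPM and Nr3c1 at 103 ± 16.8 TPM. Klf9, Zbtb16 and Fkbp5 were lower, with means of 73.4, 61.7 and 35.0 TPM. Neighbours in this order kept it in every library, except that Sgk1 was above Tsc22d3 in 2 of 3 libraries and Tsc22d3 was above Axl in 1 of 3. On TPM 6 of the 10 genes were highest in replicate 1, and 3 were after upper quartile or TMM scaling, which match libraries by other means than the total. The median log2(TPM + 1) range over the libraries was 0.50 for the 10 genes and 0.54 for all detected genes. This order turned on the other scales, with 0.58 against 0.52 after upper quartile and 0.61 against 0.50 after TMM scaling.

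**Figure D1:**
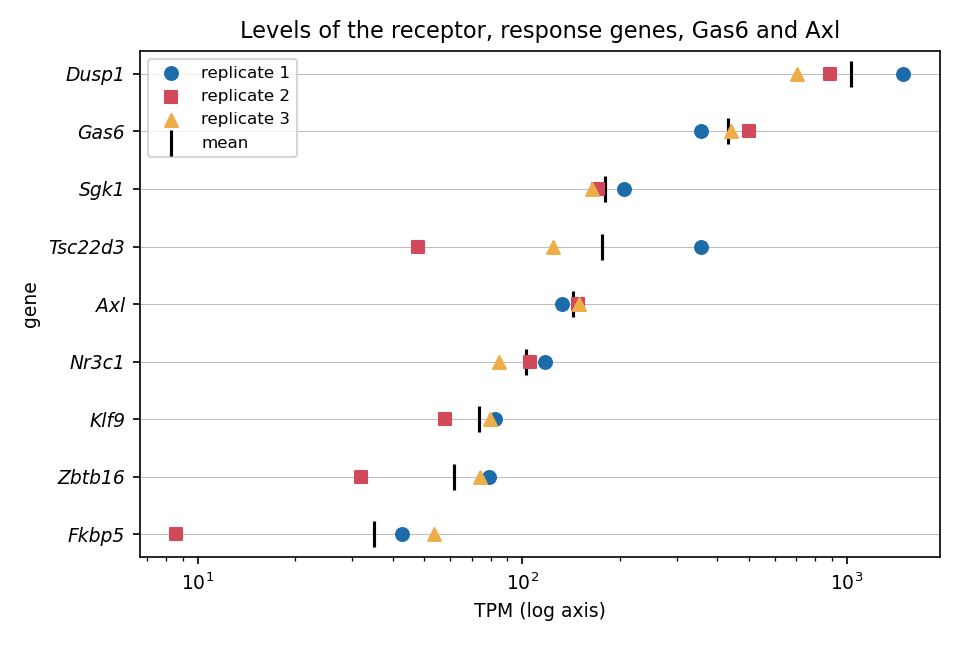
TPM on a log axis for the 9 genes with a mean of at least 1 TPM, 1 row per gene in order of mean. Each symbol is 1 library and the black bar is the mean of the 3. Tsc22d3, Zbtb16 and Fkbp5 show a low point for replicate 2 (47.7, 31.8 and 8.59 TPM), while the points of Axl (133 to 150 TPM) and Sgk1 (164 to 206 TPM) lie close together.

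The receptor itself was present in every library. Nr3c1 (ENSMUSG00000024431, chr18:39410545-39519421 on GRCm38, minus strand) was measured at 118, 106 and 84.7 TPM in replicates 1, 2 and 3, from 9435, 10740 and 9700 counts. Replicate 3 was the lowest library, also after upper quartile and TMM scaling, and the highest library was replicate 1 on TPM and replicate 2 on either of these scales. Its closest relative, the mineralocorticoid receptor Nr3c2, which binds the same hormones, had 4.21 ± 1.10 TPM. The log2 ratio of Nr3c1 to Nr3c2, with 1 added to each TPM, was 4.20, 4.50 and 4.27, a mean of 4.32 ± 0.16 (SD, n = 3), so the glucocorticoid receptor was the higher in 3 of 3 libraries. The progesterone receptor Pgr had 0.0711 TPM, from 11, 11 and 0 counts.

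The ratio was 1 of 7 computed within libraries between genes of related role. Each had the same sign in 3 of 3 libraries, and each gave p = 0.25 in a two-sided exact sign-flip permutation test, also after Benjamini-Hochberg adjustment over the 7. With 3 libraries 0.25 is the smallest p that this test can give, so no ratio can pass a threshold of 0.05.

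The chaperones that hold the receptor were among the most abundant genes of the pathway. Hsp90ab1 had 2031 ± 123 TPM, Hspa8 887 ± 156 TPM and Bag1 429 ± 14.1 TPM. Hsp90aa1, the inducible Hsp90, had 333 ± 225 TPM, with 593 TPM in replicate 1 against 208 and 198 TPM in the others. Fkbp4, the immunophilin that helps the receptor reach the nucleus, had 271, 288 and 242 TPM. Fkbp5, the competing immunophilin that lowers the receptor's affinity for hormone, was below Fkbp4 in 3 of 3 libraries, with log2 ratios of -2.64, -4.91 and -2.15, a mean of -3.23 ± 1.48. The low value belonged to replicate 2 and came from Fkbp5, since Fkbp4 was at its highest there.

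**Figure D2:**
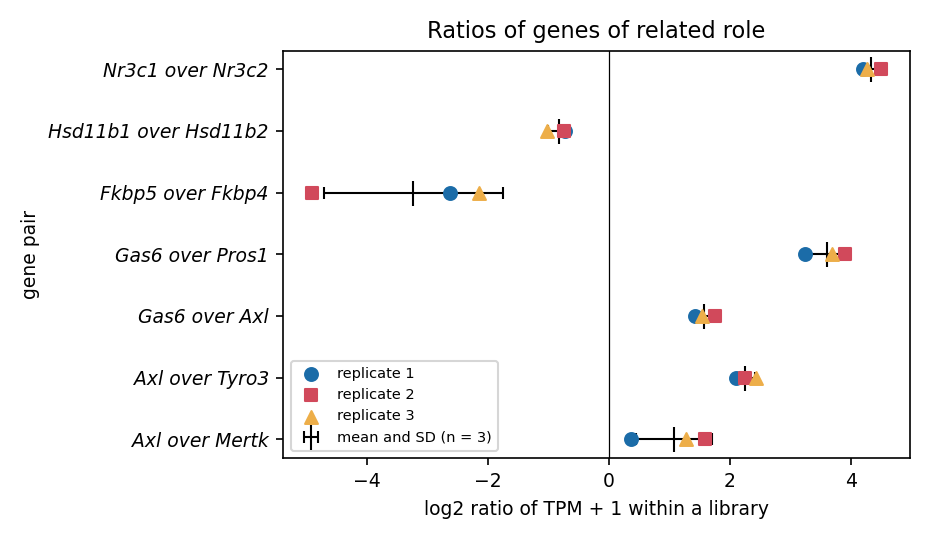
Log2 ratio of TPM + 1 between 7 pairs of genes of related role, computed within each library. Symbols are the 3 libraries, and the black bar with whiskers is the mean and SD (n = 3). Every pair keeps its sign in all 3 libraries, the widest spread is that of Fkbp5 over Fkbp4 (-4.91 to -2.15), and Axl over Mertk runs from 0.37 to 1.58.

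Stretches before transcription starts of Tsc22d3, Fkbp5, Klf9 and Sgk1 are shown because this is where receptor binding to DNA is looked for first. They come from RefSeq on GRCm38.p6, are written 5′ to 3′ on the gene's strand, and leave out any base within an annotated exon. Capitals mark matches to the receptor's binding hexamer, AGAACA or TGTTCT on the other strand. In the Sgk1 stretch they also cover a match to the palindrome GNACANNNTGTNC, which reads the same on both strands and overlaps 2 hexamers. The first stretch before Tsc22d3 lies at chrX:140600660-140600772 (minus strand), the other at chrX:140548572-140548821 (minus strand). That of Fkbp5 is chr17:28486150-28486399 (minus strand), that of Klf9 chr19:23140976-23141225 (plus strand) and that of Sgk1 chr10:21993640-21993889 (plus strand). The Sgk1 stretch belongs to 1 of 6 starts listed for the gene and was picked because it holds the palindrome.
Tsc22d3, distal start: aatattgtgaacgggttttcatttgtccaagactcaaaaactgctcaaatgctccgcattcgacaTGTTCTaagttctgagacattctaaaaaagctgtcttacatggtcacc
Tsc22d3, internal start: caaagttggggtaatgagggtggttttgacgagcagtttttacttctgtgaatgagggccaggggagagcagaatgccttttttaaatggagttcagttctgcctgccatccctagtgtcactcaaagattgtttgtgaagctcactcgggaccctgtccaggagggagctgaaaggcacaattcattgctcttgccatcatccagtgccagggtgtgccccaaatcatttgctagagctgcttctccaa
Fkbp5: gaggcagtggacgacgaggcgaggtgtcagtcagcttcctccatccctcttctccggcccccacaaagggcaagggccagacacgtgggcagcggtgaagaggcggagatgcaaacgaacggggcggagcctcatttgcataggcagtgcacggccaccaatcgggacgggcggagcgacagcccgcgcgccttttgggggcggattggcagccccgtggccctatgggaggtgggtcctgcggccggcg
Klf9: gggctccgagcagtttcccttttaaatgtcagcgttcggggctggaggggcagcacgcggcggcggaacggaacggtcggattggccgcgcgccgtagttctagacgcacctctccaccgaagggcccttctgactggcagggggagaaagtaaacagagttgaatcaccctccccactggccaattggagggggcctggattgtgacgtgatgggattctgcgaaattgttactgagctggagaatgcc
Sgk1: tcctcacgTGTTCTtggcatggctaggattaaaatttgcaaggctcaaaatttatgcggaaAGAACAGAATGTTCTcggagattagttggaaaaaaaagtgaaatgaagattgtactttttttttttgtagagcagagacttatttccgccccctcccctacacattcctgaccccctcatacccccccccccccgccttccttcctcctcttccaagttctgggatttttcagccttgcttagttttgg

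In the 250 bases before a start, the palindrome was found at 1 of the 15 starts listed for 8 of the genes, the Sgk1 start shown, at position -188 from the start. Over all 32851 starts of the RefSeq table, 0.387% held it on either strand. A hexamer was found at 4 of the 15 starts, 3 of the 6 of Sgk1 and 1 of Tsc22d3, against 16.1% of all starts. These letters were not found at the other 3 Sgk1 starts or in the windows of Fkbp5, Klf9 and Dusp1. A match describes the sequence and is not a measured binding site, and the table held no entry for Zbtb16 or Nr3c1 that was used here.

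Of the hormone-responsive genes, 3 had a low level in 1 and the same library, replicate 2. Tsc22d3 (ENSMUSG00000031431, chrX:140539528-140600659, minus strand) encodes GILZ, a protein that carries much of the anti-inflammatory action of glucocorticoids. It was measured at 355, 47.7 and 124 TPM in replicates 1, 2 and 3, from 16633, 2837 and 8313 counts. Replicate 1 was the highest, replicate 2 the lowest, and replicate 3 lay between them, apart from both. Replicate 1 was 7.45-fold and replicate 3 2.60-fold above replicate 2. The range on the log2(TPM + 1) scale was 2.87, wider than that of 98.0% of the 13663 detected genes and of 98.9% of the 1075 genes with a mean within 2-fold of its own.

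Fkbp5 (ENSMUSG00000024222, chr17:28399094-28517527, minus strand) had 42.7, 8.59 and 53.7 TPM, from 2926, 748 and 5266 counts. Replicate 2 was again the low library, while replicates 1 and 3 were close to each other with replicate 3 on top. The exact 95% Poisson intervals, which cover counting error only, were 41.1 to 44.2, 7.98 to 9.22 and 52.2 to 55.1 TPM, so depth does not limit the reading of this gap. Replicates 1 and 3 were 4.97-fold and 6.25-fold above replicate 2, a log2(TPM + 1) range of 2.51 that was wider than that of 96.5% of detected genes.

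Zbtb16 (ENSMUSG00000066687, chr9:48654297-48836222, minus strand) encodes PLZF, a zinc finger repressor. It had 79.0, 31.8 and 74.2 TPM from 4501, 2303 and 6043 counts. Replicates 1 and 3 were nearly level and replicate 2 stood below them by 2.48-fold and 2.33-fold. Which of the 2 upper libraries led depended on the scaling, with replicate 1 on top on TPM and replicate 3 after upper quartile or TMM scaling, while replicate 2 was lowest on all 3 scales.

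Klf9 (ENSMUSG00000033863, chr19:23141226-23168134, plus strand), a Krüppel-like factor that is a direct receptor target in keratinocytes, had the same order in smaller size. It was measured at 82.7, 57.8 and 79.7 TPM, from 2907, 2584 and 4013 counts. Replicate 2 was the lowest on all 3 scales, by 0.51 and 0.46 on the log2(TPM + 1) scale against replicates 1 and 3.

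The remaining hormone-responsive genes did not have replicate 2 as their lowest library. Sgk1 (ENSMUSG00000019970, chr10:21882184-21999903, plus strand), a kinase that regulates ion channels, had 206, 171 and 164 TPM from 10886, 11510 and 12396 counts. Its levels were close, with a log2(TPM + 1) range of 0.33. Dusp1 (ENSMUSG00000024190, chr17:26505590-26562128, minus strand) had 1496, 892 and 703 TPM, from 43499, 32936 and 29233 counts. Replicate 1 was the highest and replicate 3 the lowest on all 3 scales, with a log2(TPM + 1) range of 1.09. In the annotation 11 exon bases of Dusp1 overlap Ergic1 on the opposite strand, and the strand setting of the counting was not given in the sources used here.

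Dusp1 had the same highest and lowest library as most genes of a list that tissue digestion is known to induce. Of these 13 genes, among them Fos, Fosb, Jun, Egr1 and Atf3, 13 had their lowest level in replicate 3 on all 3 scales, and 12 were highest in replicate 1 on TPM, 11 on the other scales. Over all detected genes 40.6%, 33.2% and 30.5% were lowest in replicate 3 on TPM, upper quartile and TMM scaling, and 59.6%, 45.8% and 42.4% were highest in replicate 1. The summed level of the 13 was 26168, 16825 and 11993 TPM in replicates 1, 2 and 3. The part of this response in the Dusp1 values was not tested. Tsc22d3, Zbtb16 and Klf9 were also highest in replicate 1 on TPM, as most of the 13 were, while all 3 and Fkbp5 were higher in replicate 3 than in replicate 2.

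The low level in replicate 2 was then counted over all genes, by a rule set after these values had been seen: below both other libraries by more than 1 on the log2(TPM + 1) scale. The rule held for 3 of the 10 genes, Tsc22d3, Fkbp5 and Zbtb16, and for 1.16% of the 13663 detected genes. Among genes with a mean of at least 10 TPM it held for 8 protein-coding genes, 8 snoRNAs and 4 miRNAs, with a few of other kinds. Among the 7811 protein-coding genes with a mean of at least 10 TPM it held for 8, or 0.102%, and 3 of these 8 were Tsc22d3, Fkbp5 and Zbtb16.

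The other 5 were Angptl7, Glul, Usp54, Skint9 and 1700019D03Rik. Angptl7, a secreted angiopoietin-like protein, had 922, 398 and 872 TPM in replicates 1, 2 and 3. Glul, the glutamine synthetase gene, which glucocorticoids are known to induce in several tissues, had 165, 48.7 and 129 TPM. Usp54 had 79.5, 20.4 and 43.7 TPM and Skint9 28.8, 12.8 and 39.7 TPM. After upper quartile scaling 7 and after TMM scaling 6 of the 8 met the rule, with Tsc22d3, Fkbp5 and Zbtb16 in both counts. These 3 were members chosen with the spread of Tsc22d3 known, so the count is a description.

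**Figure D3:**
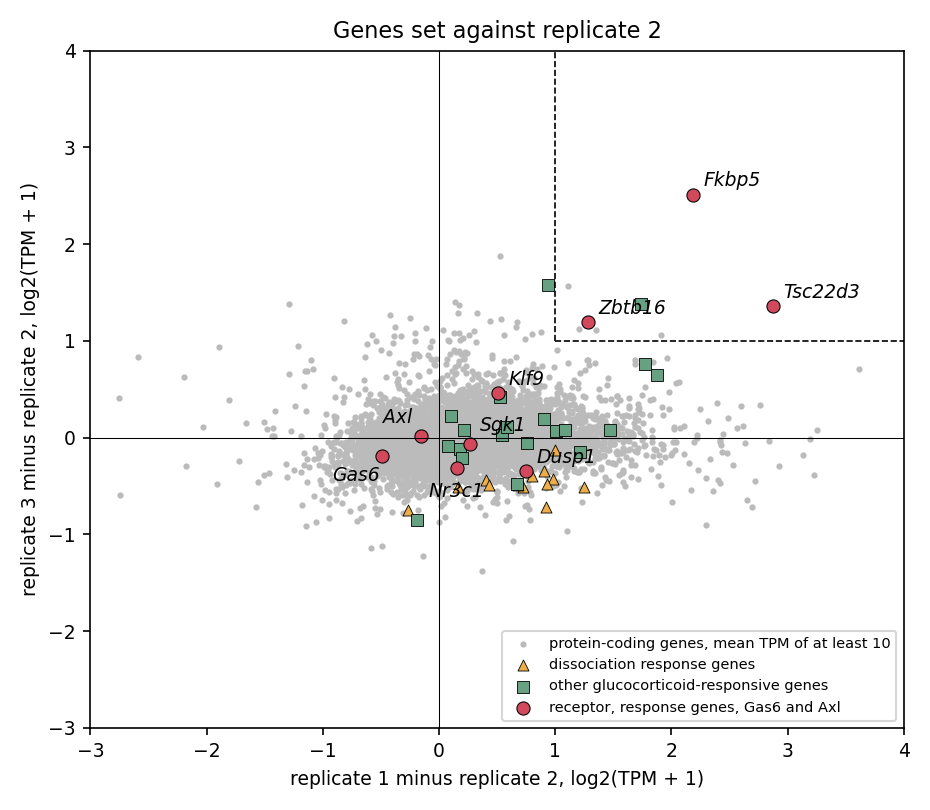
Each point is a gene, placed by replicate 1 minus replicate 2 (horizontal) and replicate 3 minus replicate 2 (vertical), both on the log2(TPM + 1) scale. The dashed lines enclose genes lower in replicate 2 than in both others by more than 1, where Tsc22d3 (2.87 and 1.36), Fkbp5 (2.19 and 2.51) and Zbtb16 (1.29 and 1.19) lie. The dissociation response genes lie below 0 on the vertical axis, and 1 gene falls outside the axes.

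A list of 28 other genes known to respond to glucocorticoids, 22 of them detected, was set beside these genes. Of the 22, 14 were lowest in replicate 2 on TPM, 13 after upper quartile and 12 after TMM scaling. Over all detected genes 34.0%, 28.9% and 28.1% were lowest there. On TPM 17 of the 22 were highest in replicate 1, against 59.6% of all detected genes. On either other scale 12 were, against 45.8% after upper quartile and 42.4% after TMM scaling. Only Glul passed the limit of 1 against both libraries. Metallothionein Mt1 had 1903, 557 and 946 TPM, and Mt2 308, 83.1 and 131 TPM, so replicate 2 was lowest, by 0.76 and 0.65 against replicate 3 on the log2(TPM + 1) scale. Angptl4, a lipase inhibitor, was lowest in replicate 2 at 7.69 TPM, against 15.6 TPM in replicate 1, and highest in replicate 3. Zfp36, which destabilizes cytokine mRNAs, differed: it had 1652, 1034 and 739 TPM and was lowest in replicate 3. Per1, a clock gene with receptor sites, had close levels of 139, 130 and 152 TPM, lowest in replicate 2. The most abundant of the list beside Zfp36 and Mt1 were Nfkbia, the NF-kappaB inhibitor, at 574 ± 324 TPM, the hormone-induced annexin Anxa1 at 492 ± 90.4 TPM, and Rhob at 186 ± 26.0 TPM.

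Genes whose pattern over the 3 libraries came nearest to Tsc22d3 were ranked by the Euclidean distance of centred log2(TPM + 1) values. Among the 8159 genes with a mean of at least 10 TPM the nearest were Gm20563 (0.17), Gm24119 (0.19), Snord7 (0.24), Gm12319 (0.28) and Mir7-1 (0.29), all short and with at most 136 counts in a library. Among protein-coding genes, a restriction added after this result, they were Gm13305 (0.64), Txnip (0.65), Zfp948, Usp54 and Ano9. Txnip, a thioredoxin-binding protein, had 1172, 279 and 418 TPM. The nearest protein-coding gene to Fkbp5 was Glul (0.80), with Zbtb16 among the nearest 5, and the nearest to Zbtb16 was Angptl7 (0.059). With 3 libraries many genes share such an order, and the distances are descriptions.

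Local activation of glucocorticoid was hardly represented. Hsd11b1 (ENSMUSG00000016194, chr1:193221634-193264075, minus strand) had 0, 0 and 15 counts in replicates 1, 2 and 3, and its level in replicate 3 was 0.229 TPM. A count of 0 allows up to 3 counts, or 0.0655 TPM in replicate 1 and 0.0515 TPM in replicate 2. Hsd11b2, which inactivates the hormone, had 13, 17 and 43 counts and 0.948 TPM on average. Hsd11b1 was the lower in 3 of 3 libraries, and both enzymes were below 1 TPM on average. The log2 ratio of Hsd11b1 to Hsd11b2 was -0.83 ± 0.17, but with Hsd11b1 at 0 its size is set by the added 1: it was -2.72 with 0.1 added and -0.40 on the TMM scale.

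Other genes of steroid handling were low as well. Srd5a1, a 5-alpha reductase, had 16.2 ± 1.56 TPM, and H6pd, which supplies the cofactor of Hsd11b1, had 6.00 ± 1.89 TPM. Star, which carries cholesterol into mitochondria, had 3.06 TPM and Cyp17a1 0.893 TPM. Cyp11a1 and Hsd3b1, which start steroid synthesis, had 0 counts in each library. Of 5 genes of the corticotropin axis, Crh, Crhr1, Mc2r and Ucn had 0 counts throughout, and Pomc had 2, 4 and 0.

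The nuclear partners of the receptor were present at moderate levels. Of the 12 coregulators listed, 12 were detected, among them the chromatin remodeller Smarca4 at 57.5 TPM and the deacetylase Hdac2 at 53.0 TPM. The arginine methyltransferase Carm1 was at 30.2 TPM and the coactivator Ncoa3 at 25.5 TPM. None of the 12 met the rule for a low level in replicate 2, which held for 1.16% of all detected genes, so this count does not set them apart.

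Gas6 and Axl had replicate 1 as their lowest library on all 3 scales. Gas6 (ENSMUSG00000031451, chr8:13465374-13494490, minus strand), a vitamin K-dependent ligand of the Tyro3, Axl and Mertk (TAM) receptor kinases, had 355, 500 and 439 TPM from 9761, 17435 and 17260 counts. Replicate 2, where Tsc22d3 and Fkbp5 were lowest, had the highest Gas6, 1.41-fold above replicate 1. A relation between Gas6 and these genes was not tested. The log2 range of the 3 values was 0.49 on TPM, under the median of 0.54 over all detected genes, but 0.69 after upper quartile and 0.74 after TMM scaling, above the medians of 0.52 and 0.50 on those scales. Gas6 shares 34 exon bases with Tmem255b on the opposite strand, which was measured at no more than 1.11 TPM.

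A few markers of dermal cells were, like Gas6, lowest in replicate 1. Fibroblast markers summed to 23.5, 54.5 and 51.5 TPM in replicates 1, 2 and 3, with 3 of 8 detected (Col1a1, Col1a2 and Thy1) and Lum and Dpt at 0 counts. Col1a2 (10.0, 23.2 and 16.7 TPM) was, as Gas6, highest in replicate 2, while Col1a1 and Thy1 were highest in replicate 3. Dermal papilla markers summed to 28.8, 59.3 and 48.3 TPM, of which Crabp1 gave 28.1, 58.6 and 47.9 TPM. It was the only 1 of these 6 markers that was detected, and Corin and Alx4 had at most 1 count in a library. The part of these cells in the Gas6 values was not tested. Markers of hair follicle stem and basal cells were also lowest in replicate 1 for 7 of 9 genes on TPM, against 25.3% of all detected genes. As with Gas6, replicate 2 was the highest library for 7 of the 9. Their sums were 39839, 55263 and 50632 TPM in replicates 1, 2 and 3, the same order as Gas6. The part of the sorted cells themselves in the Gas6 values was not tested either.

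The genes nearest to Gas6 in pattern, by the same distance over 8159 genes, were Dvl3 (0.0046), Myh14, Gna11, Vat1 and Hyou1. Vat1 had 350, 495 and 439 TPM, close to Gas6 in level too.

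Axl (ENSMUSG00000002602, chr7:25757273-25788705, minus strand) had 133, 148 and 150 TPM from 7202, 10219 and 11651 counts. Its log2(TPM + 1) range was 0.18. The ligand was above the receptor in 3 of 3 libraries, with a log2 ratio of Gas6 to Axl of 1.57 ± 0.17. Gas6 was also above Pros1, the other TAM ligand, at 34.2 ± 2.41 TPM, with a log2 ratio of 3.61 ± 0.34.

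Among the 3 TAM receptors Axl was the highest. Mertk had 103, 49.0 and 61.3 TPM and Tyro3 30.2, 30.6 and 27.2 TPM. The log2 ratio of Axl to Tyro3 was 2.25 ± 0.16, while that of Axl to Mertk was 0.37, 1.58 and 1.28, a mean of 1.07 ± 0.63, with Mertk nearest to Axl in replicate 1. The enzymes that make Gas6 active by vitamin K-dependent carboxylation were present, with Ggcx at 21.9 TPM and Vkorc1 at 32.4 TPM.

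The authors' deposited table compares these libraries with others, taken from its column names to be bulge libraries, which were not analysed here. A positive fold change in the authors' deposited table means higher in the Alpha6+/Sca1- libraries, since 2555 of 2555 genes with 0 counts in all 3 and a fold change had a negative one. An adjusted p was given in the authors' deposited table for 9 of the 10 genes, and 6 of the 9 were called at 0.05, against 55.5% of all 20274 genes with an adjusted p. Of the 9, 4 were called higher against 23.6% of all genes, and 2 were called lower against 32.0% of all. The share called is close to the background, so the calls describe single genes and not the group. The median log2 fold change of the 9 in the authors' deposited table was 0.51, against -0.36 over all tested genes and 0.25 over the 13506 of them with a mean of at least 1 TPM.

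Fkbp5 had the widest difference, 7.72-fold higher in the authors' deposited table (log2 fold change 2.95, adjusted p = 9.14e-09). Gas6 was 3.61-fold higher in the authors' deposited table (1.85, adjusted p = 7.96e-09). Tsc22d3 was 3.34-fold higher in the authors' deposited table (1.74, adjusted p = 0.000217), and Klf9 2.19-fold higher (1.13, adjusted p = 6.35e-06). Which libraries entered each fold change was not stated, and the levels of Fkbp5 and Tsc22d3 in replicate 2 were 8.59 and 47.7 TPM. In the authors' deposited table Dusp1 was 1.85-fold lower (adjusted p = 0.00381) and the receptor Nr3c1 1.46-fold lower (adjusted p = 0.00778).

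The remaining genes were not called in the authors' deposited table: Zbtb16 with a log2 fold change of 0.51 (adjusted p = 0.138), Axl with 0.30 (adjusted p = 0.235) and Sgk1 with 0.24 (adjusted p = 0.401). For Hsd11b1 the authors' deposited table gave no adjusted p.

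The other genes of the pathway are given by role, to be read against the 23.6% of all tested genes called higher and 32.0% called lower in the authors' deposited table. Of the 13 chaperones, Fkbp5 included, 9 were called higher and 2 lower, with a median log2 fold change of 0.80. Fkbp4 was at 1.59, Ppp5c, a receptor-associated phosphatase, at 2.14 and Hsp90aa1 at -1.48 in the authors' deposited table. Of the 12 coregulators 0 were called higher and 8 lower, with a median of -1.56 and the acetyltransferase Crebbp lowest at -2.89. Of the 4 steroid receptors 3 were called lower in the authors' deposited table, among them Nr3c1 at -0.54 and Nr3c2 at -1.67.

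Of the 28 other responsive genes 25 had an adjusted p in the authors' deposited table, 13 of them called higher and 2 lower, against 23.6% and 32.0% of all tested genes, with a median of 0.78. Cebpb, a transcription factor of the hormone's immediate response, was highest at 5.24, and Bcl6 lowest at -1.22. The 13 dissociation response genes had 10 called higher and 1 lower in the authors' deposited table, with a median of 1.87 between Btg2 at -1.70 and Jund at 5.04. The part of that response in the differences of the responsive genes was not tested. Of the 7 TAM genes 4 were called higher in the authors' deposited table: Gas6, Tyro3 at 2.22, Vkorc1 at 2.12 and Pros1 at 0.51. Ggcx was called lower at -1.31, and Mertk was at -0.45 with an adjusted p of 0.0973. Of the 5 steroid handling genes with an adjusted p, Star was called lower at -1.71 and no gene higher.

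**Figure D4:**
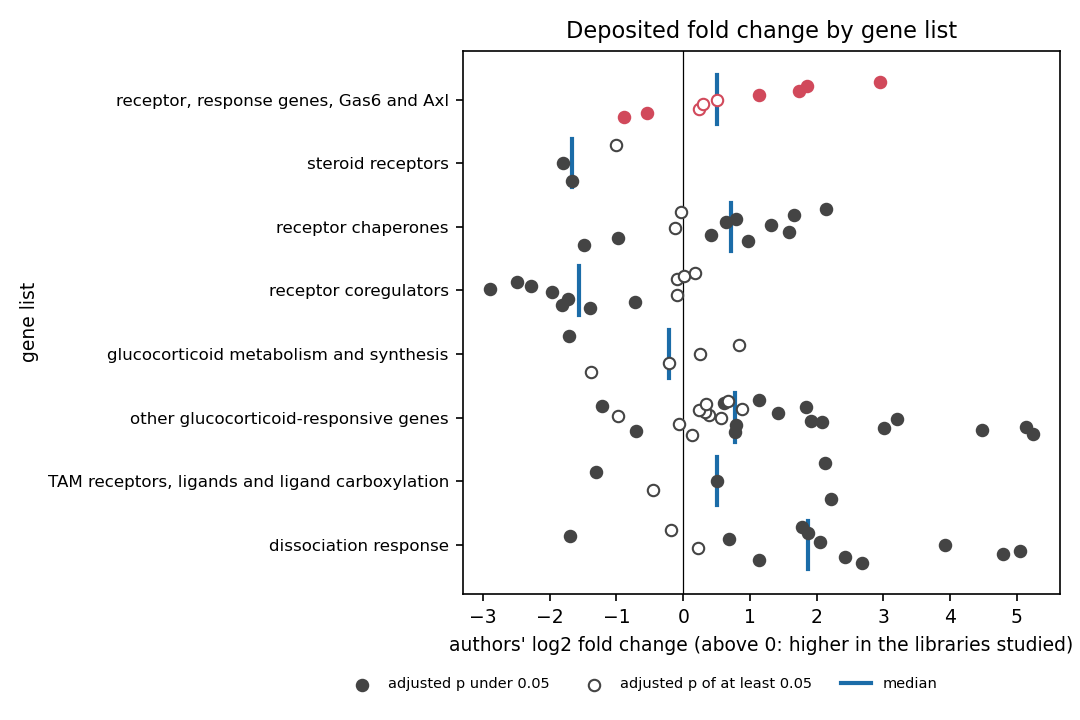
Log2 fold change from the authors' deposited table, 1 point per gene with an adjusted p, by gene list, filled where the adjusted p is under 0.05, with the median as a blue bar. The top row holds 9 of the 10 genes described, which are left out of the rows beneath. Fkbp5 (2.95) lies farthest right in the top row and Dusp1 (-0.89) farthest left, and every filled coregulator lies left of 0.

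The last measure was H3K27me3, a histone modification laid down by Polycomb on silenced genes, which the authors' deposited table gives as 1 number per gene without naming its unit or the cells it came from. It was above 0 for 1 of the 10 genes, Tsc22d3, against 8.06% of all 44625 entries. The value of Tsc22d3 in the authors' deposited table, 71537, was exceeded by 64 entries, and the median of the values above 0 was 7593. Tsc22d3 is X-linked, and among protein-coding genes with a mean of at least 1 TPM 14.2% of 366 on the X chromosome carried the mark by the authors' deposited table, against 3.18% of 11378 on autosomes. Of the X-linked genes in that count 0 exceeded Tsc22d3. The sex of the mice was not given in the sources used here, and its part in this value was not tested. Tsc22d3 ranked 7 by the score in the authors' deposited table, which combines the mark with the size and the adjusted p of the fold change. Fkbp5 and Gas6, with larger fold changes and smaller adjusted p but a mark of 0, ranked 1621 and 2131.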

How the data were processed

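The 3 libraries were used through 1 table of the whole series. The authors deposited read counts per gene and library as whole numbers, per the file headers, and also TPM, which are counts divided by a deposited gene length and scaled to the same total in each library. The authors' deposited log2 fold change, its adjusted p-value, an H3K27me3 score and a combined score were used as given. The submitters' processing notes name FastQC, TopHat2, SAMtools, DESeq and DESeq2 and the builds mm10 and GRCm38. The role of each tool, the test behind the p-value, the counting tool and the strand setting were not given in the sources used here. A further 6 columns of per-sample values matched no sample and were not used. Coordinates came from GENCODE on GRCm38, and all 10 gene identifiers matched.

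From these values were computed, with Python 3.11.15 (numpy 2.4.6, pandas 2.3.3, scipy 1.17.1), levels and ranges as log2(TPM + 1), a scale on which differences of low genes come out too small, and 7 ratios within libraries. A mean of at least 1 TPM counted as detected. TMM factors came from edgeR 4.0.16 in R 4.3.3. With 1 group, no test between groups could be run. The rules were tested on simulated data. The members and lists were chosen with earlier results of these data known. The text names all members, the 5 most abundant genes of each of 8 pathway lists, its extremes by fold change, every TAM and steroid receptor gene, and the 5 genes nearest in pattern to Tsc22d3 and to Gas6, except that some listed genes are not reported here. Mt2, Angptl4, Txnip, Per1, Ppp5c and the genes low in replicate 2 were named after their values were seen. Alternatives were the pseudocount, upper quartile and TMM scaling, stricter thresholds and leaving out each library.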

Additional observations from a re-analysis of the deposited data

How the results depend on the processing

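The count of genes highest in replicate 1, 6 of the 10, fell to 3 after upper quartile scaling and to 3 after TMM scaling, which moved Nr3c1, Zbtb16 and Klf9 to another library. Upper quartile scaling shifts log2 values of replicates 1, 2 and 3 by -0.14, 0.06 and 0.07. The count of genes lower in replicate 2 by more than 1 log2, 3, became 1 (Fkbp5) with a limit of 1.5 log2, added after the data were seen, because the limit is stricter. It stayed at 3 on the other scales, with a limit of 0.5 log2, with a pseudocount of 0.1 and against either other library alone. The mean of Tsc22d3 rested on replicate 1: 176 TPM with it and 85.9 TPM without it, 240 TPM without replicate 2 and 202 TPM without replicate 3. All 35 values of the 7 ratios under alternatives kept their direction, but none can pass the exact test with 3 libraries. No paired analysis was possible because the libraries form 1 group. Depth limits only Hsd11b1 and the other genes near 0 counts.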

Other observations

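Clock genes, several of which respond to glucocorticoids and to the hour of collection, were looked at after the low level of Tsc22d3, Fkbp5 and Zbtb16 in replicate 2 had been seen. Of 14 such genes 0 were lower in replicate 2 than in both others by more than 1 on the log2(TPM + 1) scale. That rule held for 1.16% of all detected genes. On TPM 5 of the 14 were lowest in replicate 2, against 34.0% of all detected genes, and 8 were highest in replicate 1, against 59.6%. These counts are close to the background and do not set the clock genes apart. Nr1d1, a repressor of the clock loop, had 171, 352 and 305 TPM in replicates 1, 2 and 3, and Dbp, an output gene, had 52.1, 94.3 and 67.2 TPM. Both were lowest in replicate 1 and highest in replicate 2. Per3 had 5.16, 1.51 and 1.39 TPM and Per2 8.11, 3.11 and 4.42 TPM, both highest in replicate 1. The time of day of collection was not given in the sources used here, and its part in the levels of the glucocorticoid-responsive genes was not tested.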
